A study of Homo sapiens with 10 samples.

Results

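LINC00324 siRNA 1, the first of a pair of small interfering RNAs (siRNAs) aimed at the long noncoding RNA LINC00324, was set against a scramble siRNA in HEK-293 cells. HEK-293 is a human embryonic kidney cell line that carries adenovirus DNA. The comparison takes 4 of the 10 arrays of the series, chosen by their labels: scramble replicates 1 and 2, and siRNA 1 replicates 1 and 2. All 18480 probe sets of the table for LINC00324 enter it. Each is counted as a gene here, although 80 of them share their symbol with another probe set. Every culture received its siRNA at 10 nM with RNAiMax, a lipid transfection reagent, and RNA was hybridised to Affymetrix HuGene-1_0-st arrays. The 2 arrays of siRNA 2 against the same RNA, which were normalised with them, serve as a further reference. Levels are log2 values, so a difference of 1 is 2-fold, and a change is the mean of the siRNA 1 arrays minus the mean of the scramble arrays. The labels call the arrays of a group biological replicates, and with 2 against 2 an exact permutation test of 1 gene cannot go below a two-sided p of 0.333.

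An siRNA is loaded into an Argonaute protein, which cuts RNA that pairs with the whole guide strand. Transcripts that pair with only the first bases of the guide can also be lowered, so a pair of siRNAs against one target shares its target but not these other transcripts. LINC00324 is a long noncoding RNA, transcribed beside the mitotic kinase gene AURKB. One group of falls described here belongs to targets of p53, a transcription factor that switches on genes of cell cycle arrest, cell death and DNA repair, and that is bound by an adenovirus protein in HEK-293 cells.

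The arrays were alike in their medians, which lay between 7.64 and 7.73. Some genes known from HEK-293 cells were bright. In the scramble arrays the intermediate filament gene VIM read 11.38 and 11.48, the neurofilament gene NEFM 10.28 and 10.31, and the adhesion gene CDH2 10.99 and 11.05. These 3 are bright members of a list of 19 measured HEK-293 genes. Its median scramble level was 8.26, against 7.72 for all genes. The 2 siRNA 1 arrays differed from each other more than those of the other groups did. Over all genes the SD of the replicate difference was 0.24 for siRNA 1, 0.19 for scramble and 0.13 for siRNA 2. This spread depended on the level of the gene, and so did the typical change. When genes were ordered by mean level and divided into 5 bins of 3696, the median change in siRNA 1 replicate 1 was 0.12 and 0.20 in the dimmest bins and -0.12 and -0.06 in the brightest. In replicate 2 the same medians stayed between -0.03 and 0.004. Shifts of this size over many dim or bright genes were seen in replicate 1 and not in replicate 2, so lists are given below for each replicate. The scramble arrays, whose mean is the reference, were not alike in range either. The SD of levels over genes was 2.10 and 2.15 in scramble replicates 1 and 2, and 2.04 and 2.14 in those of siRNA 1. Replicate 1 thus had the narrower range in both groups, while with siRNA 2 it had the wider one (2.12 and 2.10).

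**Figure D1:**
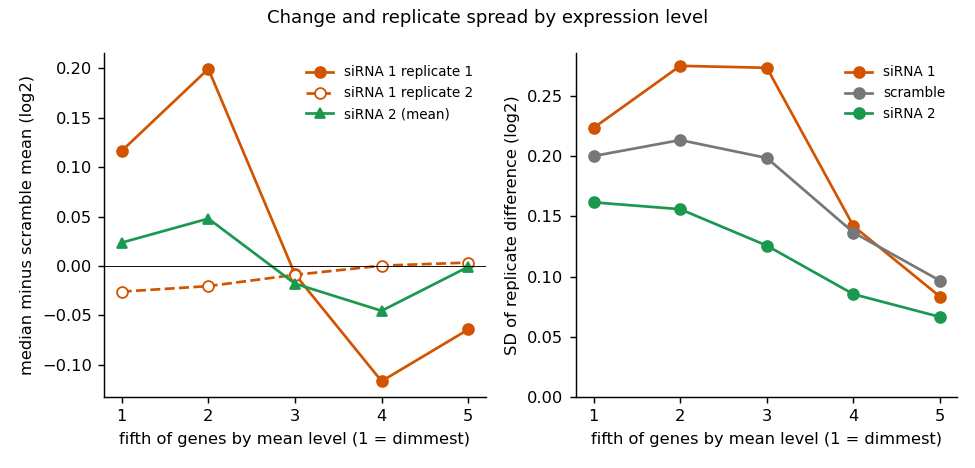
Left, the median change from the scramble mean (log2) in 5 bins of genes from dimmest to brightest, for siRNA 1 replicate 1, siRNA 1 replicate 2 and the mean of siRNA 2. Right, the SD over genes of the difference between the 2 arrays of a group (log2) in the same bins; siRNA 1 replicate 1 runs from 0.20 in the second bin to -0.12 in the fourth, while replicate 2 stays near 0.

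LINC00324 itself was read by probe set 8012416, which has 30 probes and lies on chromosome 17, minus strand, at 8123948 to 8127361 as the table gives it (the sources used here name no build). Its level was 5.79 and 5.80 in the scramble arrays, and 5.37 and 5.03 in replicates 1 and 2 of siRNA 1. Both siRNA 1 arrays lay below both scramble arrays, replicate 2 by 0.76 and replicate 1 by 0.42. The change of -0.60 (SE 0.15) did not pass the threshold of limma, with an adjusted p of 0.184. With all 10 arrays of the series matrix in the fit, the same change passed (adjusted p = 0.0462), so the call on the target depends on the setting. The level is close to 5, under which 11.4% of all genes lie. The nearest measured genes on either side were BORCS6, a lysosome positioning subunit, at 0.12, AURKB at 0.02, CTC1, a telomere maintenance gene, at -0.06, and the purine synthesis gene PFAS at -0.20. None of these passed, and neither did any other of the 27 measured genes listed as neighbours of the locus.

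With siRNA 1, 92 genes were called by limma at an adjusted p under 0.05, which is 0.498% of the 18480 tested. Of these, 40 were higher (0.216%) and 52 were lower (0.281%). Targets of p53 and a set of genes lower with siRNA 1 than with siRNA 2 (ZPR1, HDHD5, TPI1, MRPL51) were among the largest falls, while ETV1, SHMT2, PAPSS2 and ITGA8 led the rises. A change of at least 1.5-fold was reached by 88 called genes (0.476%), 39 rises and 49 falls, and a change of at least 2-fold by 13 and 14. The called genes were brighter than most: the median scramble level was 8.73 for rises and 9.46 for falls, against 7.72 for all genes.

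These calls rest on the spread of all 6 arrays, including the tight pair of siRNA 2. Without siRNA 2 replicate 1, siRNA 2 replicate 2 or both, limma called 0 genes, and 1634 passed 0.05 before adjustment, against 2435 (13.2%) with all arrays. It also called 0 when scramble replicate 1 or scramble replicate 2 was left out, and 2091 and 1409 genes then passed before adjustment. When siRNA 1 replicate 1 was left out, 44 genes were called higher and 23 lower, and 49 of the 92 were still called. When siRNA 1 replicate 2 was left out, 22 were called higher and 48 lower, and 59 of the 92 were still called. Whether rises or falls are more numerous therefore rests on single arrays. The sign of the change was the same in each of these settings for all 92 genes. This could not be otherwise, since in each of them both siRNA 1 arrays lay beyond both scramble arrays, so it adds no support.

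Read replicate by replicate, both siRNA 1 arrays lay outside both scramble arrays on the same side for all 92 genes, and for 39.1% of all genes. A call already needs a small spread within groups, so this describes the called genes and adds no support to them. The replicates differed in how far they moved. Among the 40 rises, replicate 2 was farther from scramble in 35, with median changes of 0.85 in replicate 1 and 0.92 in replicate 2. Among the 52 falls, replicate 1 was farther from scramble in 46, with medians of -0.90 and -0.75. The 2 brightest of the 5 bins of genes held 16 and 14 of these rises and 16 and 21 of these falls. In those bins the median change of all genes was -0.12 and -0.06 in replicate 1, and 0.0004 and 0.0035 in replicate 2. A downward shift of replicate 1 makes its rises smaller and its falls larger, and its part in this asymmetry was not tested. The largest gap between replicates in a called gene was 0.45, in OSTN, and the median gap was 0.12. The same asymmetry appeared when each array was read without a test. At 1.5-fold or more from the scramble mean, replicate 1 had 138 genes higher and 263 lower, and replicate 2 had 175 higher and 76 lower. Both arrays agreed in passing that size for 54 higher and 63 lower genes, and no gene passed it in opposite directions. At 2-fold or more, 6 genes were higher and 11 lower in both replicates. Both replicates are read from the same scramble mean, so part of their agreement is built in. With a separate scramble array for each, the changes of the 2 replicates had r = 0.565 across genes when matched by number and -0.0244 when crossed.

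**Figure D2:**
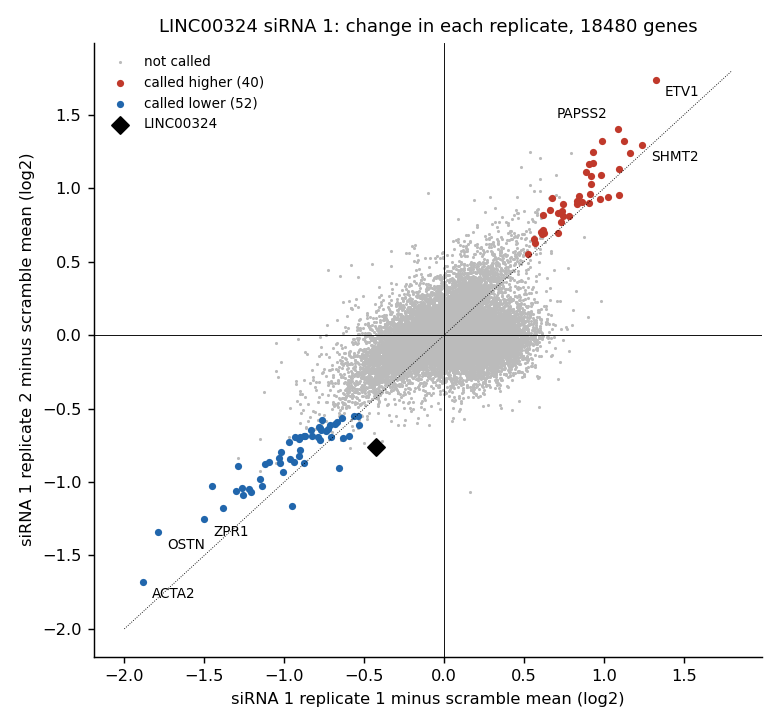
Each point is 1 of 18480 genes, with its level in siRNA 1 replicate 1 minus the scramble mean on the x axis and the same for replicate 2 on the y axis (both log2). The 40 called rises lie mostly above the dotted line of equal change and the 52 called falls mostly above it too, since replicate 2 rose farther and fell less; LINC00324 (diamond) lies at -0.42 and -0.76.

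Targets of p53 made up 12 of the 52 falls. The list used here holds 30 textbook targets of p53, of which 28 were measured, and 12 of these 28 (42.9%) were called lower and 0 higher, where 0.281% of all genes were called lower. At an unadjusted p under 0.05, 24 members were lower and 1 was higher, against 7.54% and 5.64% of all genes. Both siRNA 1 arrays lay below both scramble arrays in 26 members, against 21.3% of all genes. The median change was -0.60 over the list (-0.65 in replicate 1 and -0.56 in replicate 2) and 0.02 over all genes. The list was drawn up with earlier results of these data known, so its direction is no independent evidence. The number of members called lower was 4 when siRNA 1 replicate 1 was left out, 9 when siRNA 1 replicate 2 was, and 0 when any scramble or siRNA 2 array was.

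SPATA18, which takes part in the removal of damaged mitochondria, read 8.39 and 8.52 with scramble and 7.08 and 7.28 with siRNA 1. By limma it fell by 1.28 (SE 0.10, adjusted p = 0.0141), which is 2.43-fold. ZMAT3, an RNA-binding zinc finger gene, read 9.50 and 9.54 with scramble and 8.07 and 8.49 with siRNA 1. In both genes the 2 groups were far apart and replicate 1 was the lower array. TP53INP1, which promotes cell death and autophagy, read 8.99 and 9.17 against 7.79 and 8.19, and fell by 1.09 at the edge of the threshold (SE 0.15, adjusted p = 0.0499 by limma). BTG2, an antiproliferative regulator of mRNA decay, read 8.71 and 8.74 against 7.57 and 7.75, a fall of 1.07 (SE 0.09). EDA2R, a receptor of the tumour necrosis factor family, read 7.72 and 7.70 against 6.59 and 6.83, a fall of 1.00 (SE 0.10). These levels do not overlap, and they cover genes of quite different function.

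Cell death genes also stood among the called p53 targets. APAF1, the scaffold of the apoptosome, read 9.06 and 9.13 with scramble and 8.07 and 8.23 with siRNA 1, and fell by 0.95 (SE 0.11, adjusted p = 0.0296 by limma). FDXR, a mitochondrial ferredoxin reductase, read 8.58 and 8.53 against 7.96 and 7.87 and fell by 0.64 (SE 0.08). A further 5 members are named after their values were seen. The death receptor genes FAS and TNFRSF10B fell by 0.98 and 0.81, the DNA damage recognition gene DDB2 by 0.85, the oxidoreductase gene TP53I3 by 0.70 and the cell cycle inhibitor gene CDKN1A by 0.67. CDKN1A and FDXR differ from most of the list in that replicate 2 was the lower array. MDM2, whose product degrades p53, was not called, at -0.60 (SE 0.09, adjusted p = 0.0548 by limma). SESN2, which p53 and amino acid shortage both induce, was the one member with both siRNA 1 arrays above both scramble arrays, at 0.29 (adjusted p = 0.259 by limma). BBC3, a death-promoting BCL2 family gene, stood at 0.15 with its groups overlapping. Outside the list, and again picked after their values were seen, GLS2 and TNFRSF10D, which p53 is also known to induce, fell by 0.54 and 0.68, while PERP, another such gene, rose by 0.61.

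Against siRNA 2, most of these genes did not stand apart. The median change of the list with siRNA 2 was -0.49 from the same scramble arrays. With siRNA 2, 7 members were called lower and 1 higher, against 1.34% and 0.503% of all genes. Tested directly, siRNA 1 was lower than siRNA 2 in 2 of the 28 members, against 0.785% of all genes, and higher in 0. These were SPATA18, by -0.55 (adjusted p = 0.0463 by limma), and PMAIP1, a death-promoting BCL2 family gene, by -0.79 (adjusted p = 0.017). From scramble, PMAIP1 was at -0.27 with siRNA 1 and 0.52 with siRNA 2. EDA2R was lower still with siRNA 2, at 6.33 and 6.28, but the difference of 0.41 did not pass (adjusted p = 0.0968).

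**Figure D3:**
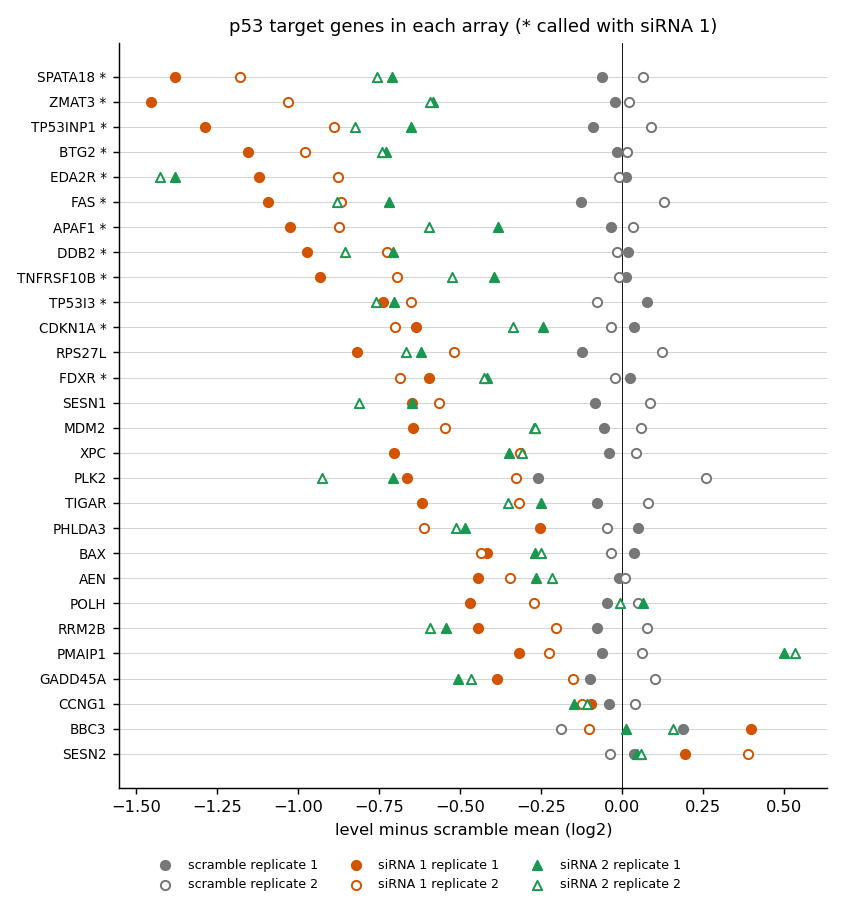
Levels minus the scramble mean (log2) of the 28 measured p53 targets in the 6 arrays, with circles for scramble and siRNA 1 and triangles for siRNA 2, filled for replicate 1. An asterisk marks the 12 called with siRNA 1; 26 of the 28 have both siRNA 1 arrays below both scramble arrays, and PMAIP1 has siRNA 1 and siRNA 2 on opposite sides of scramble.

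Promoter sequences from RefSeq (assembly GRCh38.p14), from 250 bases before to 50 after each gene's start, were searched for the p53 half-site, a motif of 10 letters that reads the same on both strands. It was found in 6.63% of 35116 promoters, and in 8.06% of 27305 genes when any promoter of the gene counts. A promoter was at hand for 23 of the 28 measured members, and 7 of them held a half-site, among them 3 of the 10 called members with a promoter (FDXR, DDB2 and FAS). The other 4 were SESN1, at -0.61, RPS27L, at -0.67, AEN, at -0.40, and PLK2, at -0.50, none of them called. These genes were picked by the match, not by the naming rule. The stretches below show the match in capitals, on the strand of the gene, for the 6 genes in which it starts before the gene's start, 11 bases before it in FDXR and 122 in FAS. A match is a description of these letters and not evidence of binding.
FDXR, chr17:74872995-74873025, minus strand: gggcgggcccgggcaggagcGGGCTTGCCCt
FAS, chr10:88991289-88991338, plus strand: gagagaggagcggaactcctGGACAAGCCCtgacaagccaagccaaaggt
SESN1, chr6:109009008-109009057, minus strand: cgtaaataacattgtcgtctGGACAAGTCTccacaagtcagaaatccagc
RPS27L, chr15:63157507-63157556, minus strand: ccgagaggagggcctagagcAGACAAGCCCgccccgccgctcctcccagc
AEN, chr15:88621286-88621335, plus strand: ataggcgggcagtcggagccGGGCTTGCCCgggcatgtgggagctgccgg
PLK2, chr5:58460189-58460238, minus strand: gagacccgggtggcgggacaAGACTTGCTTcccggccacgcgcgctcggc

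The largest fall of all was that of ACTA2, smooth muscle actin. It read 9.41 in both scramble arrays and 7.52 and 7.73 in the siRNA 1 arrays, and fell by 1.78 (SE 0.10, adjusted p = 0.0128 by limma), a factor of 3.44. Its gene, given by the table at 90694831 to 90751104 of chromosome 10 (minus strand), overlaps FAS, which the table starts at 90749226 on the plus strand. OSTN, which encodes the secreted peptide osteocrin, read 7.53 and 7.84 with scramble and 5.89 and 6.34 with siRNA 1, and fell by 1.57 (SE 0.18, adjusted p = 0.0304). It was lower still with siRNA 2, at 5.29 and 5.10, and the difference of 0.92 between the siRNAs had an adjusted p of 0.0503 by limma, just above the limit. QPCT, a glutaminyl cyclase gene, read 7.85 and 7.95 against 6.60 and 6.84. INPP5D, a lipid phosphatase gene, read 6.92 and 6.62 against 5.82 and 5.61. QPCT and INPP5D fell by 1.18 and 1.06, and both were also called lower with siRNA 2, at -0.83 and -0.94 from the same scramble arrays.

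In another set of falls the levels with siRNA 2 stayed close to scramble. ZPR1, a zinc finger gene whose product acts with the survival motor neuron protein, read 10.54 in both scramble arrays, 9.04 and 9.28 with siRNA 1, and 10.45 and 10.36 with siRNA 2. It fell by 1.38 with siRNA 1 (SE 0.10, adjusted p = 0.0141 by limma), and the siRNAs differed by -1.24 (adjusted p = 0.012). MRPL51, a mitochondrial ribosomal protein gene, is among the bright genes of these cells and read 12.72 and 12.75 with scramble, 11.53 and 11.67 with siRNA 1, and 12.91 and 12.88 with siRNA 2. In both genes the siRNA 2 arrays stayed within 0.2 of the scramble mean, while both siRNA 1 arrays were lower by more than 1.

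The same pattern held for 4 other genes of the 15 largest falls. HDHD5, a hydrolase-like gene, read 9.03 and 8.96 with scramble and 7.74 and 7.91 with siRNA 1, and the siRNAs differed by -1.26 (adjusted p = 0.0119 by limma). C5orf15 read 10.02 in both scramble arrays and 8.80 and 8.97 with siRNA 1, and the siRNAs differed by -1.18 (adjusted p = 0.0112). NR6A1, an orphan nuclear receptor of germ cells and early embryos, read 9.62 and 9.63 with scramble and 8.48 and 8.60 with siRNA 1, and the siRNAs differed by -0.97 (adjusted p = 0.012). For each of these genes replicate 1 was the lower of the siRNA 1 arrays. The fourth carries the name TPI1, a glycolytic enzyme gene, and read 11.72 and 11.83 against 10.51 and 10.73, with a difference between the siRNAs of -1.24 (adjusted p = 0.0138). Its probe set lies on chromosome 1 in the table, while RefSeq places TPI1 on chromosome 12, so the transcript that it measured is uncertain. It was the only called gene whose chromosome in the table differed from RefSeq.

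In the authors' separately normalised table for the lncRNA LOC400043, which holds the same scramble arrays, ZPR1 stood at 0.03 and 0.08 from scramble with the 2 siRNAs of that table. MRPL51 stood there at 0.19 with either siRNA, and NR6A1 at 0.02 and -0.14. For HDHD5, C5orf15 and the probe set named TPI1, no values with the LOC400043 siRNAs are given here. None are given either for ACTA2, CA2 or the p53 and ATF4 lists. In all, 22 of the 52 falls had siRNA 2 within 0.2 of scramble and also differed between the siRNAs, as did 10 of the 40 rises. For the difference between the siRNAs alone, without the limit of 0.2, the counts were 28 falls and 18 rises. On that measure 0.785% of all genes were lower and 2.28% higher with siRNA 1 than with siRNA 2. The called genes were chosen by their siRNA 1 values, which the test between the siRNAs uses again, so these counts are partly built in. Falls of this kind beyond the naming rule were picked after their values were seen. They include the signalling adaptor gene GRB2, at -0.91 with siRNA 1 and 0.02 with siRNA 2, and GEMIN5, which assembles the small nuclear RNA particles of splicing, at -0.93 and -0.11. UROS, an enzyme gene of heme synthesis, stood at -0.87 and -0.08, and SAMM50, a mitochondrial outer membrane assembly gene, at -0.87 and -0.15. ADCY10P1, a pseudogene of a soluble adenylyl cyclase, went in opposite directions with the siRNAs. It read 7.52 and 7.82 with scramble, 6.66 and 6.74 with siRNA 1, and 8.79 and 8.70 with siRNA 2, a difference between the siRNAs of -2.05 (adjusted p = 0.0112 by limma). Signal from its parent gene on these probes cannot be told apart from its own.

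**Figure D4:**
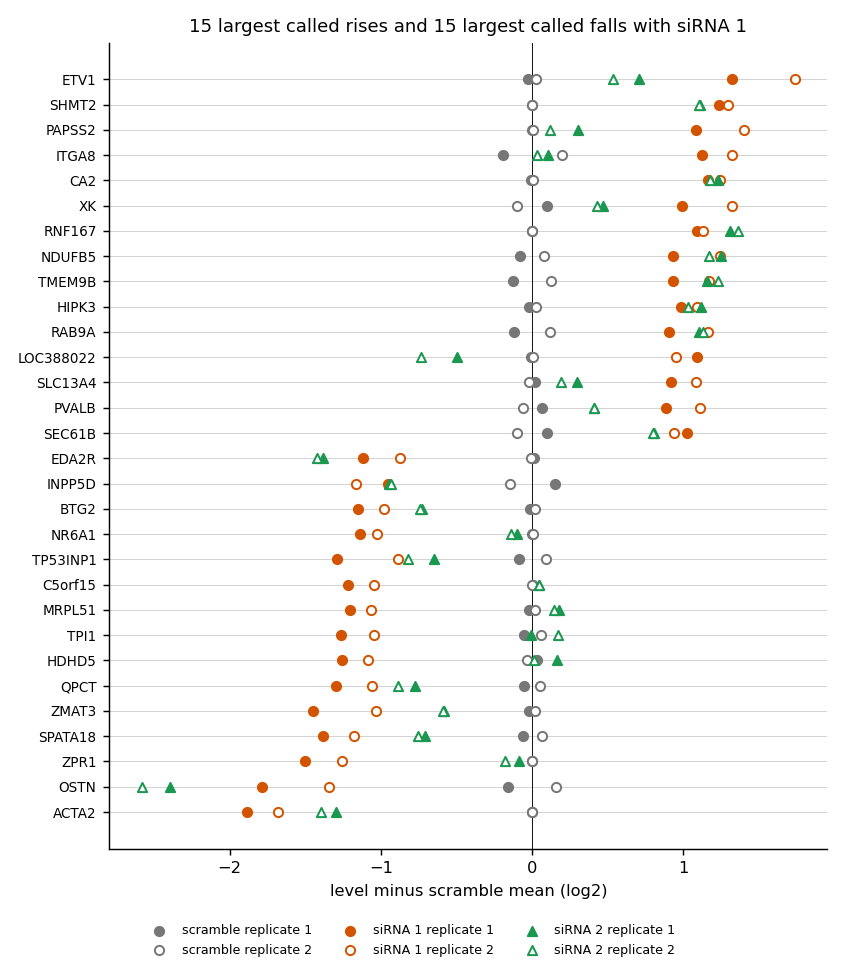
Levels minus the scramble mean (log2) of the 15 largest called rises and the 15 largest called falls in the 6 arrays, with circles for scramble and siRNA 1 and triangles for siRNA 2, filled for replicate 1. For ZPR1, HDHD5, TPI1, MRPL51, C5orf15 and NR6A1 the siRNA 2 triangles lie beside the scramble circles, and for LOC388022 they lie on the other side of scramble.

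Among the rises, enzymes of serine metabolism and a cystine transporter formed one group. SHMT2, the mitochondrial serine hydroxymethyltransferase, read 10.48 in both scramble arrays and 11.72 and 11.78 with siRNA 1, and rose by 1.27 (SE 0.07, adjusted p = 0.0128 by limma), a factor of 2.40. PHGDH, the first enzyme of serine synthesis, read 11.41 and 11.37 against 12.26 and 12.30, a rise of 0.88 (SE 0.07). SLC7A11, the cystine transporter, read 9.99 and 10.14 against 10.85 and 10.87, a rise of 0.80 (SE 0.08). The siRNA 1 replicates lay within 0.06 of each other in these genes. They were the 3 of 35 members called in the list of amino acid response genes of the transcription factor ATF4, where 0 were called lower and 0.216% of all genes were called higher. The median of the list was 0.20 (0.17 in replicate 1 and 0.27 in replicate 2). At an unadjusted p under 0.05, 17 members were higher and 0 lower, against 5.64% and 7.54% of all genes. This list too was drawn up with earlier results of these data known, so its direction is no independent evidence. PSAT1, the next enzyme of serine synthesis, stood at 0.45 (adjusted p = 0.0992 by limma), the asparagine synthetase gene ASNS at 0.16 and ATF4 itself at 0.07. PSAT1, ASNS and ATF4 are named as well-known members, chosen after their values were seen. Which members were called, and whether any were, depended on single arrays. The median of the list was 0.27 without siRNA 1 replicate 1 and 0.17 without siRNA 1 replicate 2. With siRNA 2 the median of the list was 0.21 against the same scramble arrays. More members were called with siRNA 2, 9 higher and 0 lower, against 0.503% and 1.34% of all genes. SHMT2, PHGDH and SLC7A11 were called with siRNA 2 at 1.11, 1.07 and 1.15.

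ETV1, a transcription factor gene of the ETS family, had the largest rise. It read 5.68 and 5.73 with scramble and 7.03 and 7.44 with siRNA 1, and rose by 1.53 (SE 0.15, adjusted p = 0.0206 by limma), a factor of 2.89. With siRNA 2 it read 6.41 and 6.24, between the other groups, and siRNA 1 was higher by 0.91 (adjusted p = 0.034). XK, a membrane protein gene of red blood cells, had the same order, with 6.98 and 6.78 in scramble, 7.87 and 8.20 in siRNA 1, and 7.34 and 7.31 in siRNA 2. PVALB, which encodes the calcium buffer parvalbumin, rose by 1.00 (SE 0.10, adjusted p = 0.0232) from 6.16 and 6.03 to 6.98 and 7.20. XK and PVALB were also higher with siRNA 1 than with siRNA 2, by 0.71 (adjusted p = 0.0473) and 0.59 (adjusted p = 0.0407).

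Several rises were larger with siRNA 1 than with siRNA 2. PAPSS2, which makes the activated sulfate used by sulfotransferases, read 8.32 and 8.33 with scramble, 9.41 and 9.73 with siRNA 1, and 8.63 and 8.44 with siRNA 2. It rose by 1.24 (SE 0.13, adjusted p = 0.0229 by limma), and the siRNAs differed by 1.04 (adjusted p = 0.0195). ITGA8, an integrin subunit of kidney development, read 6.68 and 7.07 with scramble and 6.98 and 6.90 with siRNA 2, and lay 1.12 and 1.32 above the scramble mean in replicates 1 and 2 of siRNA 1. Its scramble arrays were far apart, but both siRNA 1 arrays lay above them and above siRNA 2, by 1.16 (adjusted p = 0.0196). SLC13A4, a sulfate transporter gene, read 8.30 and 8.27 against 9.20 and 9.37, and rose by 1.00 with siRNA 1, while it stood at 0.24 with siRNA 2 (difference 0.76, adjusted p = 0.0192). SCD5, a fatty acid desaturase gene, rose by 0.87 (adjusted p = 0.0174) and stood at -0.10 with siRNA 2. MOXD1, a monooxygenase-like gene, rose by 0.72 (adjusted p = 0.049) and stood at -0.26 with siRNA 2. For both, the difference between the siRNAs was 0.97 (adjusted p = 0.0119 and 0.0156). LOC388022 was called in opposite directions, with 8.80 and 8.81 in scramble, 9.90 and 9.76 in siRNA 1, and 8.31 and 8.07 in siRNA 2 (difference 1.64, adjusted p = 0.0112).

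Other large rises are listed next, with the siRNA 2 change given for CA2 only. CA2, a carbonic anhydrase gene, read 11.29 and 11.30 with scramble and 12.46 and 12.53 with siRNA 1, and stood at 1.20 with either siRNA. RNF167, a ubiquitin ligase gene of endosomes, read 9.11 in both scramble arrays and 10.20 and 10.24 with siRNA 1, a rise of 1.11 (SE 0.07, adjusted p = 0.0141 by limma). HIPK3, a protein kinase gene, read 8.49 and 8.53 against 9.50 and 9.60. The siRNA 1 replicates of these genes lay close together. NDUFB5, a respiratory complex I subunit, rose by 1.09, TMEM9B, a lysosomal membrane gene, by 1.05 and RAB9A, which returns receptors from late endosomes to the Golgi, by 1.04. In these 3 genes replicate 2 was higher than replicate 1 by 0.31, 0.24 and 0.26, and scramble replicate 2 was also the higher scramble array. SEC61B, a subunit of the translocon in the endoplasmic reticulum, rose by 0.98 (SE 0.10), while SEC61A1, the channel subunit of the same complex, was called lower, at -0.60 (adjusted p = 0.0459). SEC61A1 was picked after its value was seen.

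Over all calls, siRNA 1 and siRNA 2 were then compared directly, without the scramble arrays in the contrast. The siRNAs differed in 567 genes (3.07% of those tested), with siRNA 1 higher in 422 (2.28%) and lower in 145 (0.785%). This balance depended on the scaling and on 1 array. It was 283 higher and 212 lower with arrays centred on their medians, 180 and 165 without siRNA 1 replicate 2, and 536 and 85 without siRNA 1 replicate 1. Of the 40 genes called higher with siRNA 1, 18 were also higher than with siRNA 2, and of the 52 called lower, 28 were also lower than with siRNA 2. With siRNA 2, 17 of the rises and 16 of the falls were called in the same direction against the same scramble arrays (SPATA18 is in both counts of falls), where 0.503% and 1.34% of all genes were called higher and lower. For 5 rises and 9 falls neither contrast was called. The median change of the rises was 0.89 with siRNA 1 and 0.49 with siRNA 2, and that of the falls was -0.83 and -0.20. The members of both lists were chosen by their siRNA 1 values, so the larger size with siRNA 1 is part of the choice. The count of differences rests on the siRNA 2 arrays too: it was 345 without siRNA 1 replicate 2, 81 without either scramble array and 0 without either siRNA 2 array.

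Other gene lists had few calls with siRNA 1. Single members were called in 7 lists. These were SEC61B for the unfolded protein response (20 measured), SLC7A11 for targets of the oxidative stress factor NRF2 (25), ACTA2 for actin and smooth muscle (29) and NDUFB5 for respiratory complex I (32). MRPL51 was the one call for mitochondrial ribosomal proteins (69) and the probe set named TPI1, whose transcript is uncertain, for glycolysis and hypoxia (27). TYMS, thymidylate synthase, was the one call among 35 DNA replication genes and read 11.37 and 11.39 with scramble against 10.60 and 10.75 with siRNA 1. It fell by 0.70 (SE 0.08, adjusted p = 0.0337 by limma), and the siRNAs differed by -0.50 (adjusted p = 0.0383). The medians of these 7 lists lay between -0.08 and 0.06.

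The other 17 lists had 0 calls by limma. Between 0 and 8 members of each had an unadjusted p under 0.05, as 13.2% of all genes did. The most were in the HEK-293 list, with 5 of 19 higher and 3 lower (5.64% and 7.54% of all genes). The RNA interference genes had the lowest median of the 17 lists, at -0.11 (-0.12 in replicate 1 and -0.07 in replicate 2). Both siRNA 1 arrays lay below both scramble arrays in 13 of these 24 genes and above them in 1. For the 31 immediate early genes the counts were 13 and 0, where the shares of all genes were 21.3% and 17.8%. AGO1, an Argonaute gene, read 10.34 and 10.32 with scramble and 9.80 and 9.89 with siRNA 1, at -0.49 (adjusted p = 0.0722 by limma). Its level was lower with siRNA 1 than with siRNA 2 by -0.53 (adjusted p = 0.0286). TNRC6C, which binds Argonaute proteins, stood at -0.37 (adjusted p = 0.136). Immediate early genes had a median of -0.10, with NR4A2, a nuclear receptor gene, at -0.50 (adjusted p = 0.0992). Interferon and double-stranded RNA response genes had a median of 0.07, IFIT2 standing at -0.34 and IRF9 at -0.26. G2/M genes had a median of 0.07, which was 0.00 in replicate 1 and 0.11 in replicate 2, with CDC20 at 0.31 and BIRC5 at 0.29. None of the interferon or G2/M genes passed.

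Ribosomal, histone, heat shock, cholesterol, annexin, aminoacyl-tRNA synthetase and cytokine genes likewise had no call. Their medians lay between -0.03 and 0.08. RPL34, a ribosomal protein gene, stood at -0.51 (adjusted p = 0.103 by limma) and RPL15 at 0.41, and the histone genes H2BC14 and H2AC8 at 0.48 and 0.46. DNAJB4, a chaperone gene, stood at 0.57, and HSPB1, a small heat shock protein gene, at 0.28. STARD4, a sterol carrier gene, stood at -0.69 (SE 0.17, adjusted p = 0.176), with replicates as far apart as 7.17 and 7.64. LSS, lanosterol synthase, stood at -0.29. ANXA3, an annexin gene, stood at 0.83 (SE 0.18, adjusted p = 0.13) with 7.62 and 8.08 in siRNA 1 and 6.90 and 7.13 in scramble. It was higher with siRNA 1 than with siRNA 2 by 1.34 (adjusted p = 0.0215), and ANXA2 stood at 0.30. FARSA and CARS1, which charge tRNAs with phenylalanine and cysteine, stood at 0.56 (adjusted p = 0.066) and 0.25. The cytokine-related genes NFKB2 and CCL20 stood at -0.22 and 0.22.

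Markers of HEK-293 cells and of other cell types were not called. The log2 of the summed level of the 19 measured HEK-293 genes was 13.79 and 13.82 with scramble and 13.78 and 13.85 with siRNA 1. For kidney epithelial genes it was 11.25 and 11.18 against 11.21 and 11.15, for fibroblast genes 11.35 and 11.24 against 11.39 and 11.37, and for squamous and cervical epithelial genes 12.23 and 12.19 against 12.26 and 12.22. For blood cell genes it was 10.35 and 10.17 against 10.49 and 10.25. In replicate 1 the median changes of the 4 lists of other cell types were between 0.13 and 0.27, and in replicate 2 between -0.06 and -0.01. The dimmest bins of all genes shifted in the same way. The part of these markers in the called changes was not tested, and fewer cells of a type and less RNA per cell cannot be told apart. Among HEK-293 genes, GAP43, a growth cone gene, stood at 0.70 (adjusted p = 0.066 by limma) and NEFM at -0.47 (adjusted p = 0.103). GAP43 was higher with siRNA 1 than with siRNA 2 by 0.92 (adjusted p = 0.0192). PODXL and LRP2, named for the kidney list, stood at -0.50 and 0.42, LUM and PDGFRA of the fibroblast list at 0.41 and 0.37. KRT6A and CDH3 of the squamous list stood at 0.27 and 0.34, CD14 and FCER1G of the blood list at 0.33 and -0.23, and the neighbours TMEM107 and KDM6B of LINC00324 at -0.27 and -0.25.

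**Figure D5:**
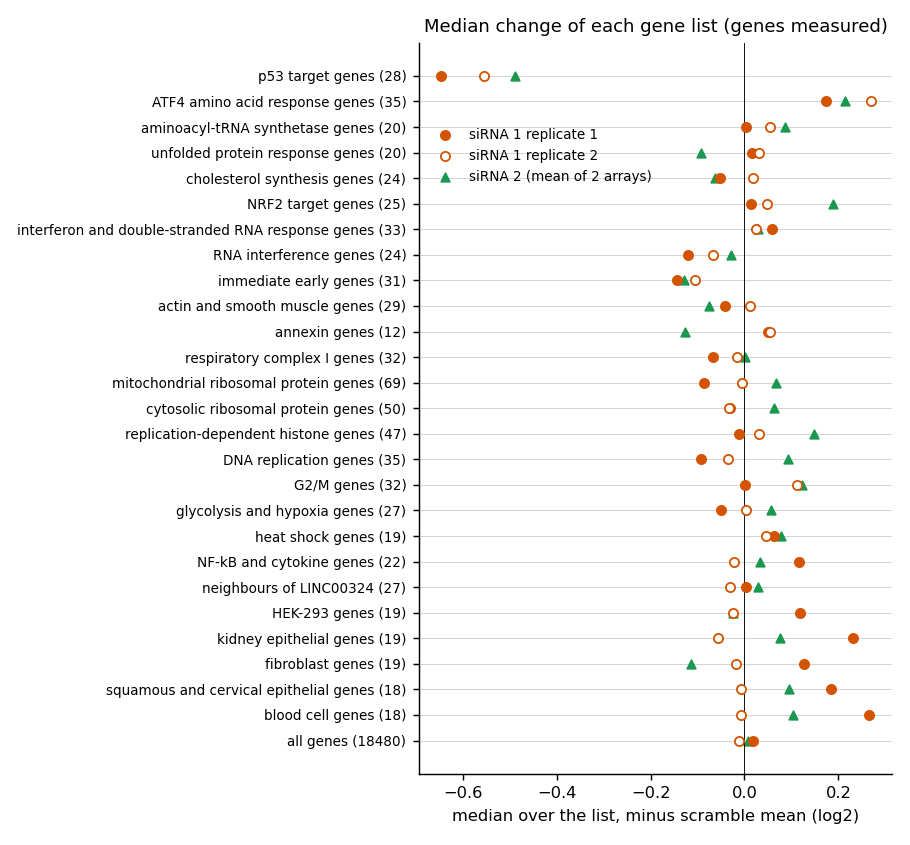
Median change from the scramble mean (log2) of 26 gene lists and of all genes, with the number of genes measured in brackets, in siRNA 1 replicate 1 (filled circles), siRNA 1 replicate 2 (open circles) and the mean of siRNA 2 (triangles). The p53 targets lie at -0.65 and -0.56 in the siRNA 1 replicates and the ATF4 list at 0.17 and 0.27; the marker lists of other cell types are higher in replicate 1 than in replicate 2.

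The genes in which the siRNA 1 replicates disagreed most were dim and were not called. FLJ31958 read 5.96 in replicate 1 and 4.73 in replicate 2, against 5.80 in both scramble arrays. OR52K3P, an odorant receptor pseudogene, went the other way, with 4.76 and 5.93. LCE3D, KRTAP10-4 and LOC441233 were also lower in replicate 2, by -1.09, -1.01 and -0.93. EPCAM, ZNF846 and MIR15B were higher in replicate 2, by 1.07, 1.06 and 1.06. Of the MIR15B arrays, both scramble arrays (5.94 and 6.47) lay between the siRNA 1 arrays (5.62 and 6.68). Each of these 8 genes had a larger gap between the siRNA 1 arrays than any called gene.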

How the data were processed

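Total RNA of HEK-293 cells was measured on HuGene-1_0-st arrays. The deposited table for LINC00324 holds log2 values, made by the authors with RMA per the submitters' processing notes, which name limma as well and give no version for either. The series matrix holds the same log2 values as deposited, with a difference of 0 on shared arrays. The table of LOC400043 was normalised separately by the authors. No coordinates were converted.

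Gene symbols were updated through RefSeq tables, 17330 by accession, 427 by symbol and 339 by former symbol, and 384 kept the deposited name. Of 25 symbols turned into dates, 24 were resolved. The 6 arrays of scramble, siRNA 1 and siRNA 2 were fitted as 3 groups in R 4.3.3 with limma 3.58.1 (lmFit, contrasts and eBayes, two-sided), with no filter and with Benjamini-Hochberg adjustment over all 18480 genes. A gene is called at an adjusted p under 0.05. Every adjusted p in the text is limma's. The script was tested on simulated data. The number of arrays limits the precision.

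Genes and the 26 lists (728 entries measured) were chosen with earlier results of these data known, and lists are described by counts and medians. Named genes are the target and 2 measured genes on each side of it, the 15 largest called rises and falls, up to 6 called members per list or else the 2 smallest p, the 5 largest differences between siRNAs per direction, and the 4 largest replicate differences per direction. Exceptions are stated, and 1 item is not reported here. Alternatives were the 4 arrays alone, a replicate block with either set of arrays, a filter at a level of 5, an intensity trend, array weights, a second quantile normalisation, centring on medians, the series matrix with all 10 arrays, and leaving out each array.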

Additional observations from a re-analysis of the deposited data

Results flagged for a closer look

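Among genes called with siRNA 1, 10 were picked out because the difference between the siRNAs, tested in the same limma fit, was among the 5 largest in its direction. The levels are in the report, and each pair of siRNA arrays lay apart from the other pair.

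Lower with siRNA 1 than with siRNA 2 were ADCY10P1 by -2.05, MRPL51 by -1.30, HDHD5 by -1.26, ZPR1 by -1.24 and TPI1 by -1.24 (log2). Higher with siRNA 1 were LOC388022 by 1.64, ITGA8 by 1.16, PAPSS2 by 1.04, SCD5 by 0.97 and MOXD1 by 0.97. The adjusted p of these differences lay between 0.0112 and 0.0196. For ADCY10P1 and LOC388022 the siRNAs moved the gene in opposite directions from scramble, and both changes were called.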

How the results depend on the processing

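All 92 called genes kept their direction in every alternative that tested them (91 were tested with the filter on dim genes). Leaving out 1 array could not reverse it, since both siRNA 1 arrays lay beyond both scramble arrays. Of the other alternatives, only the second quantile normalisation and the centring alter the size of a change. Of 26 list medians, 14 changed sign in some alternative, all of them at most 0.11 from 0 at first, and 8 did so with the second quantile normalisation. Neither the p53 nor the ATF4 median did. The count of calls depended on the setting. With the siRNA 1 and scramble arrays alone it was 0 (1634 genes with an unadjusted p under 0.05), with array weights 44, with a second quantile normalisation 340 (179 higher, 161 lower), with an intensity trend 931 and with the series matrix of 10 arrays 717. For calls of at least 1.5-fold these counts were 0, 44, 143, 180 and 169, for p53 targets called lower 0, 4, 14, 20 and 18, and for ATF4 genes called higher 0, 3, 4, 12 and 7. The count between the siRNAs was 497 with array weights, 1150 with the quantile step, 1859 with the trend and 1712 with the matrix. The filter on dim genes gave 97 calls and centring gave 92 (43 higher, 49 lower). The estimated array weights were lowest for siRNA 1 and highest for siRNA 2. The cause of the other changes was not tested.

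Leaving out 1 array gave 0 to 70 calls, 0 to 70 of at least 1.5-fold, 0 to 621 between the siRNAs, 0 to 9 p53 targets, 0 to 2 ATF4 genes and a LINC00324 change of -0.76 to -0.43. Of 51 named called genes, 17 lost the call without siRNA 1 replicate 1, 14 without siRNA 1 replicate 2, 20 with array weights, 2 with centring, and all 51 without any 1 scramble or siRNA 2 array.

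The labels do not say whether a replicate number marks a shared culture or day, so pairing was not assumed and is not known. Across genes the replicate differences had r = 0.598 between scramble and siRNA 1, -0.185 between scramble and siRNA 2 and -0.382 between the siRNAs. The siRNA 1 minus scramble changes of the 2 replicates had r = 0.565 when arrays were matched by number and -0.0244 when crossed. With a replicate block 82 genes were called, of which 70 were among the 92, and 7 of the 51 named genes lost the call. With the block and the siRNA 1 and scramble arrays alone there were 754 calls, 192 of at least 1.5-fold, with 22 p53 targets lower and 7 ATF4 genes higher. LINC00324, at -0.60, then had an adjusted p of 0.0244 by limma, and of 0.0462 with the series matrix. The smallest change called in the fit of 6 arrays was 0.54, while the trend and the block with 4 arrays also called smaller ones.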

Other observations

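The series matrix holds a further 14817 probe sets beside those of the table. Fitted alone in the same way, 0 were called by limma with siRNA 1 against scramble, the smallest adjusted p was 0.133, and 887 (5.99%) had an unadjusted p under 0.05, against 13.2% of the genes in the table.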
